A study of Mus musculus with 3 samples.

Results

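The Fc receptor genes of mouse microglia are described here, 8 genes chosen by symbol from a table of 24411. They are Fcgr1, Fcgr3 and Fcgr4, which encode activating receptors for IgG, Fcgr2b, which encodes the inhibitory IgG receptor, Fcer1a, the ligand-binding chain of the high-affinity IgE receptor, Fcer1g, the signalling chain that several of them share, Fcgrt, the heavy chain of the neonatal Fc receptor FcRn, and Fcrls, an Fc receptor-like gene used as a microglial marker in mice. All 8 were found in both tables. RNA was sequenced from 3 libraries of 1 group, cKO microglia with a Pu.1 inhibitor. The mice were Mir137loxP/loxP;Tmem119-CreERT2 on a C57BL/6J background and were given tamoxifen daily for 7 days when 7 to 8 weeks old, and the sample labels give an age of 6 to 8 weeks. All 3 libraries thus carried the floxed Mir137 alleles, the tamoxifen-activated Cre expressed from the microglial gene Tmem119, and the inhibitor. Microglia with intact Mir137 and cKO microglia without the inhibitor were not analysed here, and the text below describes levels in this single condition. Nothing in the labels ties the replicates to separate animals, so p-values concern only these libraries, whose differences may be technical.

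Fc receptors bind the constant part of antibodies and link antibody-coated material to phagocytosis and cell activation. In mice the ligand-binding chains encoded by Fcgr1, Fcgr3, Fcgr4 and Fcer1a signal through the Fcer1g chain, whose immunoreceptor tyrosine-based activation motif (ITAM) recruits the kinase Syk after phosphorylation by Src family kinases. Fcgr2b carries the opposite kind of motif (ITIM), which recruits the lipid phosphatase encoded by Inpp5d. FcRn works inside endosomes, where it pairs with beta-2-microglobulin and returns IgG to the cell surface instead of letting it be degraded. In the brain, microglia are the main cells in which the activating IgG receptors are found.

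The promoters of the activating IgG receptor genes are shown first because the libraries were exposed to an inhibitor of Pu.1, a transcription factor of the ETS family whose best known binding core is GAGGAA. The last 120 bases before the RefSeq start are given 5′ to 3′ on the strand of the gene, from RefSeq for GRCm38.p6, with GAGGAA or its reverse complement TTCCTC in capitals. Fcgr2b, whose 250 bases before the start held neither but matched a composite ETS element described below, is given for comparison.
Fcgr1, chr3:96293970-96294089, minus strand: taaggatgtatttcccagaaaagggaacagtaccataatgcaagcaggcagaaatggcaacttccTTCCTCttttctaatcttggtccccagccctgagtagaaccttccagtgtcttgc
Fcgr3, chr1:171059395-171059514, minus strand: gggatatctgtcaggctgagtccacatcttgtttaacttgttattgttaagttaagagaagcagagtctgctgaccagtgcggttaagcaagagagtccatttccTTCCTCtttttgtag
Fcgr4, chr1:171018806-171018925, plus strand: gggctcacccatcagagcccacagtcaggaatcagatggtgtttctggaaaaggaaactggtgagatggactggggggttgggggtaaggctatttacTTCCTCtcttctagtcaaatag
Fcgr2b, chr1:170976072-170976191, minus strand: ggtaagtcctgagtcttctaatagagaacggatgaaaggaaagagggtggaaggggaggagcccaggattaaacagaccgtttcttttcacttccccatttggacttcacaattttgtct

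All 8 genes matched the promoter table, with 9 start sites, since Fcgr3 has a pair of starts that lie close together, both inside the longer gene model of GENCODE. The 250 bases searched for Fcgr2b (170976072 to 170976321) likewise lie inside its GENCODE gene, which extends to 170976547. The window of Fcrls overlaps its GENCODE gene too. Within 250 bases before the start, GAGGAA was found on either strand at 5 of the 8 genes (Fcgr1, Fcgr3, Fcgr4, Fcer1a and Fcrls) and at 23.3% of all 32851 promoters. Its first letter lay 55 bases before the start in Fcgr1, 15 and 6 from the starts of Fcgr3 and 22 in Fcgr4, in each case as TTCCTC on the gene's own strand, against 216 bases in Fcer1a and 144 in Fcrls as GAGGAA. Fcgr1 and Fcgr3 shared a run of 14 letters around it, TTCCTTCCTCTTTT. Of the 32851 promoters, 3 held this run on either strand, those of Fcgr1 and Fcgr3 included. The run was chosen as the longest this pair shares, so the count does not test whether such sharing is unusual. The other pairs of IgG receptor promoters shared no run longer than 8 letters. The composite element of ETS and interferon regulatory factors, found at 2.30% of all promoters, was matched at Fcgr2b, 35 bases before the start. An interferon-type element (GAAA, any 2 letters, GAAA), found at 2.98% of promoters, was matched at Fcgr4, 73 bases before its start. Fcgr1 held TTCNNNGAA, the letters that STAT factors bind, 109 bases before its start, as did 7.02% of promoters. Both strands were searched for every motif. These are matches of letters and not measurements of binding, and no match says only that the letters are not in this window.

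The libraries held 15710750 to 17180404 estimated counts each. Mir137 was listed at 0 counts in all 3 libraries, as were all 1179 annotated microRNA genes in the table (0 of 1179 with a count), so it did not check the deletion. Spi1, the gene of Pu.1, was at 187, 191 and 182 FPKM (fragments per kilobase of effective transcript length, scaled to library depth) in replicates 1, 2 and 3. All 12 homeostatic microglial markers were detected, meaning at least 1 FPKM in every library, among them P2ry12 at 1608 ± 7.79 and, lowest, Sall1 at 134 ± 5.88 FPKM (mean ± SD, n = 3, as for all values in this form). Genes of other cells were present too: 11 of 11 neutrophil and 8 of 8 monocyte markers were detected, and these cells also carry Fc receptors. In bulk RNA, more cells of a type and more RNA per cell cannot be told apart.

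The Fc receptor genes were abundant, with a single exception. Of the 8, 7 were detected, as were 47.8% of all genes, and 5 had a mean of at least 100 FPKM. Their median of log2(FPKM + 1) was 7.54 ± 0.04, beside 0.95 ± 0.02 over all genes and 9.52 ± 0.06 over the homeostatic microglial markers. Together they took 0.307 ± 0.015% of all counts. Fcgr3 stood at rank 62 in mean FPKM among all genes, Fcer1g at 116, Fcrls at 122, Fcgr2b at 293, Fcgr1 at 545, Fcgrt at 981, Fcgr4 at 2925 and Fcer1a at 14283.

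**Figure D1:**
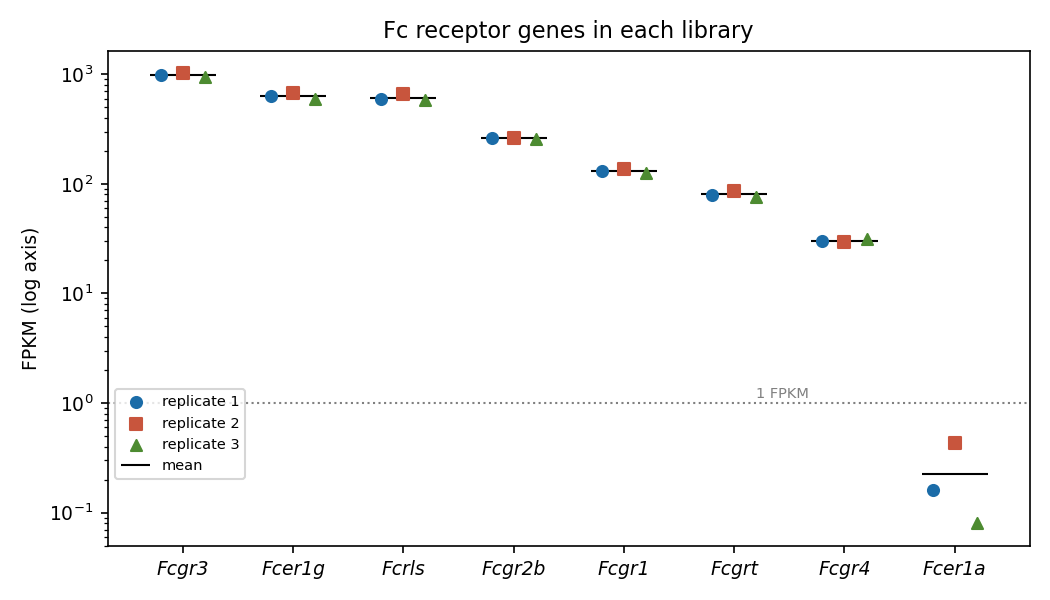
FPKM (log axis) of the 8 Fc receptor genes in replicates 1 to 3 of cKO microglia with the Pu.1 inhibitor, with the mean as a bar and a dotted line at 1 FPKM. The genes from Fcgr3 at 977 FPKM to Fcgr4 at 30.1 FPKM stay close to their means in every library, while Fcer1a lies under 1 FPKM.

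Among the activating IgG receptors, Fcgr3 dominated. Fcgr3 encodes the low-affinity receptor of the mouse that also serves natural killer cells and neutrophils, and it had 975, 1020.4 and 935 FPKM in replicates 1, 2 and 3. Replicate 2 was the highest and replicate 3 the lowest. Fcgr1 encodes the high-affinity IgG receptor (GRCm38 chromosome 3, 96282909 to 96293969, minus strand) and had 132, 137 and 126 FPKM. Its libraries followed the same order as those of Fcgr3. Fcgr4 encodes an intermediate-affinity receptor known from monocytes and neutrophils (chromosome 1, 171018920 to 171029761, plus strand) and had 29.8, 29.6 and 31.1 FPKM. For Fcgr4, replicate 3 was the highest. No library of any of the 3 genes overlapped with those of another. The ratio of Fcgr1 to Fcgr4 was 4.38 ± 0.30 in FPKM within a library.

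Fcgr2b, the inhibitory receptor, had 261, 260.0 and 256 FPKM (chromosome 1, 170958617 to 170976547, minus strand). Its libraries lay closer together in FPKM than those of any other member, with a coefficient of variation (CV, SD divided by mean) of 1.18%. In TPM its CV was 2.61%, above the 1.63% of Fcgr3 and the 1.74% of Fcgr1. In the summed FPKM of the 4 IgG receptor genes, Fcgr3 made up 69.9 ± 0.58%, Fcgr2b 18.5 ± 0.52%, Fcgr1 9.42 ± 0.07% and Fcgr4 2.16 ± 0.14%. The ratio of the 3 activating genes to Fcgr2b, a common summary of the balance of IgG receptors, was 4.35, 4.57 and 4.27 in FPKM in replicates 1, 2 and 3. That of Fcgr3 alone to Fcgr2b was 3.73, 3.92 and 3.66. Activating transcripts therefore exceeded the inhibitory ones in 3 of 3 libraries. Each log2 ratio was also set against 0 by flipping signs over the libraries, and this exact permutation test, two-sided, gave p = 0.25 for every ratio. With 3 libraries no smaller p exists, and a threshold of 0.05 could not be passed.

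The Fcgr3 and Fcgr2b values depend on how reads were divided between these genes. Their coding sequences were 87.5% identical over 782 aligned nt, whereas the other pairs among Fcgr1, Fcgr2b, Fcgr3, Fcgr4 and Fcer1a were 63.7 to 70.1% identical. Of the 28 pairs of members, only Fcgr2b and Fcgr3 shared a run of 50 nt between their annotated transcripts. Their longest shared run is shown because a read inside it fits both genes. It is 129 nt long, lies within the coding sequence, and crosses from exon 3 to exon 4 of both genes (minus strand of chromosome 1, GRCm38, ending bases 170966674 and 170968081 in Fcgr2b and 171054167 and 171057792 in Fcgr3).
Fcgr2b and Fcgr3: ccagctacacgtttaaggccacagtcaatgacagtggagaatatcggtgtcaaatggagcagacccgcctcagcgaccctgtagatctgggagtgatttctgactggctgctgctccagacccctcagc

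The deposited counts show that such a division was made. Fcgr3 had 17977.4, 17157.55 and 16404.91 estimated counts in replicates 1, 2 and 3, and Fcgr2b had 5055.6, 4588.45 and 4705.09. None of these is whole, but their sums were 23033, 21746 and 21110. The other 6 members had whole counts in every library, while 4.93% of all genes had a count that was not whole. Fcgr2b took 21.9, 21.1 and 22.3% of the summed counts of both genes. That sum holds all their reads, not only those that fit both. Of the 50-nt windows in their annotated transcripts, 9.58% of those of Fcgr3 and 2.92% of those of Fcgr2b were shared. The share of Fcgr2b in the summed counts differed little between libraries. It does not show how reads that fit both genes were divided, and the accuracy of that division was not tested. The ratio also depends on the length assigned to Fcgr2b. Its effective length, recovered from counts and FPKM, averaged 1125 nt, close to the 1072 nt of Fcgr3, whereas its annotated exons sum to 5790 nt beside 1736 nt. With exon sums in place of effective lengths, the log2 ratio of Fcgr3 to Fcgr2b was 3.58 and not 1.91. The exon sum joins all annotated transcripts, and the longest of Fcgr2b has 3544 nt, so no annotated transcript is that long.

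Fcer1g, the shared signalling chain, had 626, 680.1 and 590 FPKM (chromosome 1, 171229572 to 171234365, minus strand). Replicate 2 was again the highest and replicate 3 the lowest. It was lower than the sum of the ligand-binding chains that need it: the ratio of Fcer1g to Fcgr1, Fcgr3 and Fcgr4 together was 0.555 ± 0.017 in FPKM. Fcer1g is the shortest of the members, with an effective length of 377 nt, and with exon sums the log2 ratio was -1.45 in place of -0.85. The related adaptor Tyrobp (DAP12), which serves Trem2 and other receptors, had 898, 1061 and 926 FPKM, or 1.52 ± 0.08 times Fcer1g. Of the 8 other ITAM and related signalling chains, 3 were detected. The next after Tyrobp were Hcst at 34.3 ± 10.9 and Cd79b of B cells at 16.4 ± 2.96 FPKM, and Cd3d of T cells was lowest at 0.23 ± 0.20 FPKM. Other receptors that signal through Fcer1g were less abundant in FPKM than the IgG receptors. Of 9, 6 were detected, led by the C-type lectins Clec4e at 14.7 ± 0.72, Clec4d at 12.4 ± 0.60 and Clec4n at 10.8 ± 2.22 FPKM, while Oscar and Gp6 had no count. All 9 stayed below Fcgr4 in FPKM. In counts with no length, Clec4e (594, 493 and 531 in replicates 1, 2 and 3) exceeded Fcgr4 (496, 449 and 493).

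Fcer1a was the exception, with 2, 5 and 1 counts in replicates 1, 2 and 3. The exact 95% Poisson intervals of these counts, which cover counting error only, were 0.24 to 7.22, 1.62 to 11.7 and 0.025 to 5.57, so the libraries could not be told apart. They correspond to 0.16, 0.43 and 0.08 FPKM, where 3 counts would give 0.24, 0.258 and 0.24 FPKM. Replicates 1 and 3 were thus below that level and replicate 2 above it. Ms4a2, the beta chain of the same IgE receptor, had 7, 19 and 8 counts. Of 11 mast cell and basophil markers 5 were detected, with the histamine-forming enzyme Hdc at 20.5 ± 1.08, the transcription factor Gata2 at 15.3 ± 0.55 and the basophil protease Mcpt8 at 4.44 ± 1.78 FPKM. Tpsab1, a mast cell tryptase, was lowest at 0.08 ± 0.14 FPKM. Fcer1g, at 632 FPKM on average, was thus abundant beside hardly any Fcer1a or Ms4a2 transcript.

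Fcgrt, the FcRn heavy chain, had 78.8, 85.9 and 75.7 FPKM (chromosome 7, 45092990 to 45103851, minus strand). Its partner B2m had 3801, 4094 and 3892 FPKM, a ratio of B2m to Fcgrt of 49.1 ± 2.02. B2m also serves all class I histocompatibility molecules. Of the 11 genes of this light chain and of endosomal recycling, 10 were detected. After B2m the highest were Rab7, a GTPase of late endosomes, at 202 ± 7.56 and the retromer subunit Vps35 at 109 ± 3.67 FPKM. The motor gene Myo5b was lowest at 0.97 ± 0.16 FPKM.

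Fcrls (chromosome 3, 87250758 to 87263738, minus strand) had 592, 662.03 and 585 FPKM. Replicate 2 stood apart from the other libraries, which differed from each other by little. Fcer1g and Fcrls were the only neighbours in the order of mean FPKM whose libraries overlapped: their ratio was 1.06, 1.03 and 1.01, and Fcer1g was higher in 3 of 3 libraries in FPKM but lower than Fcrls on average in CPM with no length and by exon sums. The other 6 of 7 neighbouring pairs did not overlap. Other genes that bind immunoglobulin or resemble Fc receptors were low, with 2 of 11 detected, Fcrl1 at 10.6 ± 0.90 and the cytosolic antibody receptor Trim21 at 7.58 ± 0.57 FPKM. Fcmr, the IgM receptor, was at 0.61 ± 0.16 FPKM, and Fcamr and Fcrl6 had no count.

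The genes through which the activating receptors signal were nearly all expressed. Of 35 genes of ITAM signalling 34 were detected, with a median log2(FPKM + 1) of 5.59 ± 0.01. The highest were the GTPases Cdc42 at 425 ± 12.1 and Rac1 at 368 ± 17.5 FPKM, which drive actin assembly in phagocytic cups, and the Src family kinase Lyn at 200.3 ± 4.25 FPKM. Syk had 46.6, 49.4 and 47.2 FPKM. Lat, the linker of T cells, was the member not detected, at 0.39 ± 0.37 FPKM, while its myeloid relative Lat2 was at 34.1 ± 4.83 FPKM. Genes that restrain the pathway were also expressed: 15 of 16 were detected, with a median of 4.81 ± 0.08. Inpp5d, the phosphatase recruited by Fcgr2b, was the highest at 213, 211 and 213 FPKM, or 4.45 ± 0.16 times Syk, followed by the tyrosine phosphatase Ptpn6 at 102 ± 6.29 and the Src inhibitor kinase Csk at 81.3 ± 2.58 FPKM. Ubash3a was lowest at 0.22 ± 0.19 FPKM. Of 19 other genes of ITIM-bearing and related inhibitory receptors 18 were detected, with a median of 5.04 ± 0.01. Sirpa, which receives the CD47 signal against phagocytosis, was at 500.1 ± 0.68, the collagen receptor Lair1 at 182 ± 5.06 and Havcr2 at 160.04 ± 1.44 FPKM, and Pdcd1 was lowest at 0.40 ± 0.25 FPKM. By FPKM, Fcgr2b stood below Sirpa and above the other 18 genes of that list. This rank rests on length: in counts, Lair1, Havcr2 and Cd33 also exceeded Fcgr2b in every library.

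**Figure D2:**
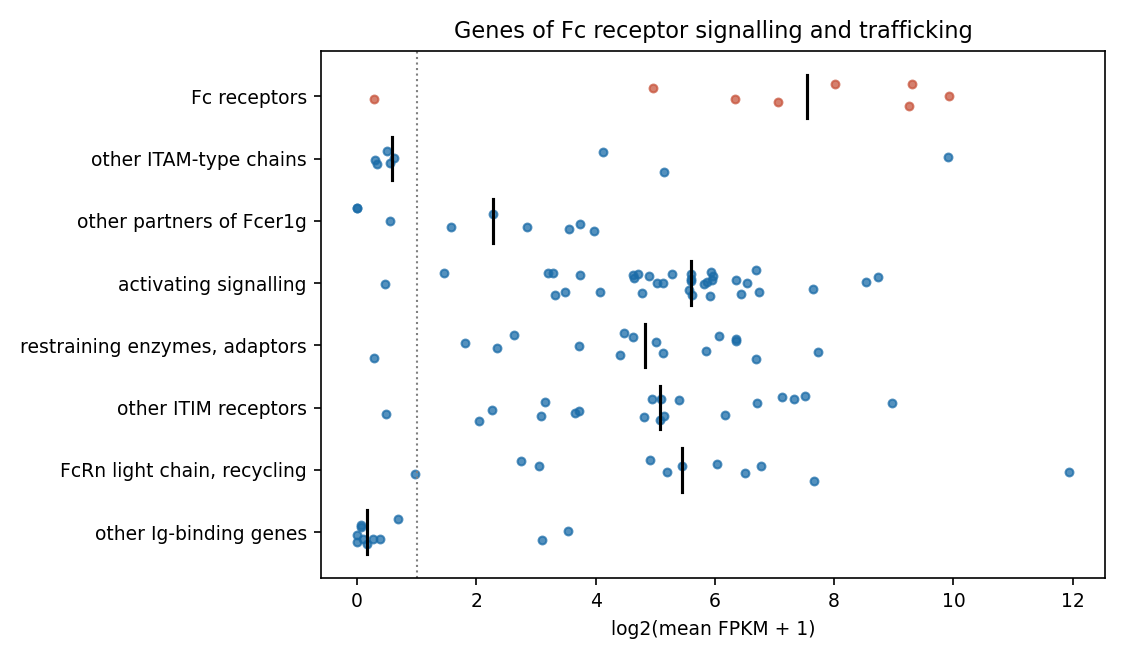
Each point is a gene at log2(mean FPKM + 1) over the 3 libraries, in rows by role, with the row median as a black bar and a dotted line at 1 FPKM. The Fc receptor row lies furthest right by its median, Fcer1a apart. The rows of other ITAM-type and related chains and of other Ig-binding genes are mostly left of the dotted line.

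Transcription factors tied to Fc receptor expression were expressed as well, with 8 of 9 detected. Cebpa was at 338 ± 3.52, Spi1 at 187 ± 4.65 and Cebpb at 182 ± 13.4 FPKM. Gata1, a factor of mast cells and erythroid cells, was lowest at 0.01 ± 0.02 FPKM. Compared with the other 19 lists of genes examined, the median of the Fc receptor genes was higher in every library than that of 17. The exceptions were the homeostatic microglial markers and the neutrophil markers, whose median was 7.66 ± 0.10.

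The genes lie close together on chromosome 1. Fcgr2b, Fcgr4, Fcgr3 and Fcer1g fall within 276 kb, and Fcer1a lies 1987 kb beyond Fcer1g. Fcgr4 is transcribed from the opposite strand and sits between Fcgr2b and Fcgr3, yet its mean was 30.1 FPKM, beside 259 and 977 FPKM for these neighbours. Within 100 kb of the 4 genes, 19 other genes were in the table and 12 were detected, at 5.54 to 83.8 FPKM with a median of 22.1. Among them were Tomm40l at 5.54 ± 0.59, Cfap126 at 9.13 ± 1.65, Ppox at 10.95 ± 1.67, Dusp12 at 12.6 ± 1.02, Dedd at 19.2 ± 1.49, Usp21 at 21.3 ± 0.63, B4galt3 at 22.9 ± 0.63, Atf6 at 27.6 ± 0.54, Ufc1 at 59.6 ± 6.94, Pcp4l1 at 79.8 ± 1.1 and Sdhc at 83.8 ± 6.69 FPKM. Fcgr2b, Fcgr3 and Fcer1g were above all 12, and Fcgr4 was within their range. No tabulated neighbour of Fcer1a within 100 kb was detected (0 of 6). Within 100 kb of Fcgrt lie Rpl13a, a ribosomal protein gene at 664 ± 99.4 FPKM, and, 769 nt away, Rcn3 at 5.90 ± 0.66 FPKM. Annotated antisense genes overlap Fcgr2b and Fcgrt, and without stated strand the reads of such overlapping genes cannot be told apart. Mir6546, at 0 counts, overlaps Fcgr3 and the snRNA gene Gm26110 overlaps Fcgr4. Both overlaps are on the same strand, where strand would not separate the reads.

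**Figure D3:**
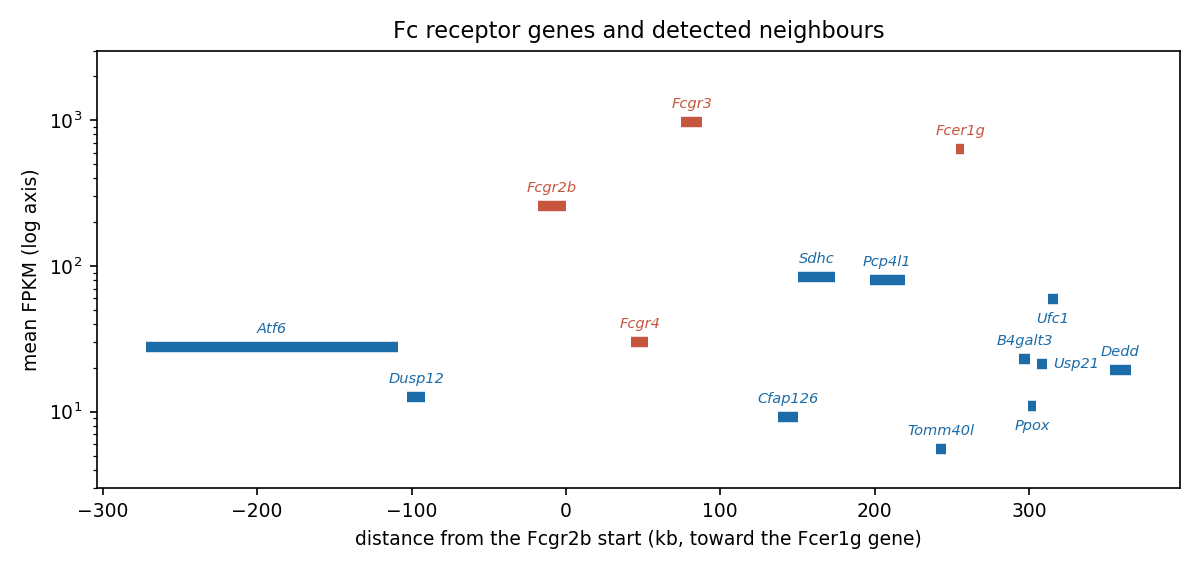
Mean FPKM (log axis) of the 4 Fc receptor genes of the chromosome 1 cluster and of detected genes within 100 kb of them, each drawn as a bar over its gene body, by distance in kb from the Fcgr2b start. Fcgr3, Fcer1g and Fcgr2b stand above every neighbour drawn, and Fcgr4 lies among them.

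The libraries differed by more than counting error for most of these genes. Homogeneity of a gene's 3 counts was tested by chi-square after TMM scaling (trimmed mean of M-values), with Benjamini-Hochberg adjustment over 13246 genes. The test called 5 of the 7 members tested, beside 41.4% of all genes tested. Fcer1a was filtered out for low counts. The called members were Fcrls (adjusted p = 3.67e-34), Fcgr3 (4.85e-13), Fcer1g (2.02e-07), Fcgr1 (5.75e-04) and Fcgrt (0.00174), whereas Fcgr2b (0.555) and Fcgr4 (0.768) were not called. Counts as deep as those of Fcgr3 make small differences detectable. The test sets the libraries against counting error alone, with reads taken as independent molecules, so it makes no allowance for ordinary variation between samples and compares libraries, not conditions. All 5 called genes were highest in replicate 2 and lowest in replicate 3, an order seen in 22.2% of all called genes. The order depends on the scaling: with the FPKM rescaled to a common sum (TPM), Fcgr1 was highest in replicate 1 (246, 245 and 238), Fcrls was lowest in replicate 1 (1102, 1181 and 1106) and Fcgr3 differed little between replicates 1 and 2 (1817, 1820 and 1767). Of all detected genes, 36.0% were highest in replicate 2 in FPKM and 22.6% in TPM. In CPM, the counts scaled to library size, replicate 2 exceeded the gene mean by 7.97% for Fcrls, 7.19% for Fcer1g, 7.11% for Fcgrt, 4.34% for Fcgr3 and 4.15% for Fcgr1. Without replicate 2 the test called 2 members, Fcer1g and Fcgr3 (adjusted p = 0.0406 and 0.00115), beside 18.6% of all genes.

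**Figure D4:**
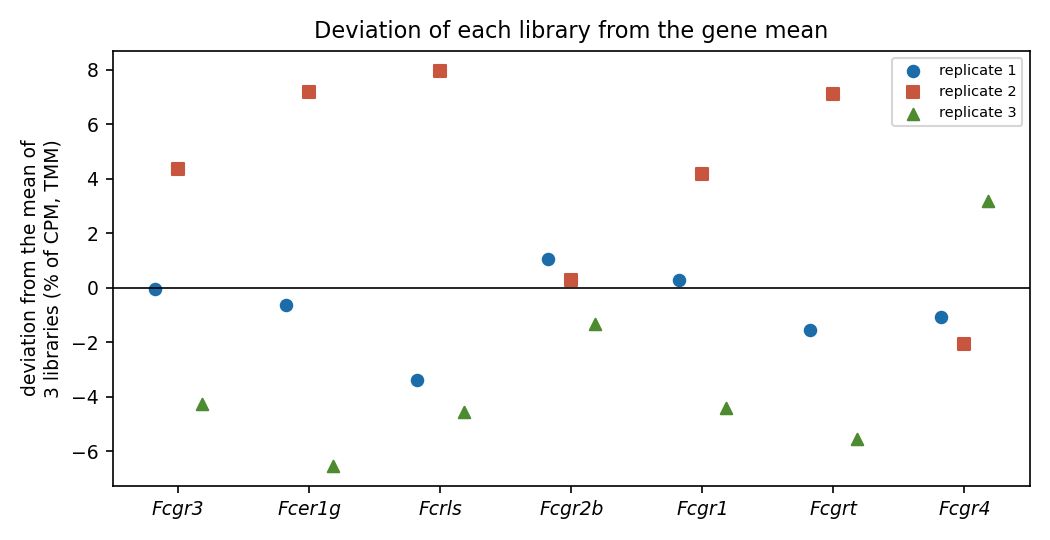
Deviation of each library from the gene's mean over the 3 libraries, in percent of TMM-scaled CPM, for the 7 detected Fc receptor genes. Replicate 2 lies 4.15 to 7.97% above the mean for Fcgr3, Fcer1g, Fcrls, Fcgr1 and Fcgrt, 0.28% above it for Fcgr2b and at -2.07% for Fcgr4.

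Markers of other cell types differed between the libraries as well, in both directions. The summed CPM of the 8 monocyte markers was 1050, 1122 and 1024 in replicates 1, 2 and 3, or 5.35% above its mean in replicate 2. That of the 11 neutrophil markers was 3867, 4103 and 3900, or 3.69% above. The 12 homeostatic microglial markers summed to 33043, 33187 and 32298, or 1.05% above. NK cell markers summed to 17.8, 21.1 and 13.9 CPM, with replicate 2 again the highest. Endothelial markers, at 3030, 3199 and 3118 CPM, and mast cell and basophil markers, at 103, 105 and 98.5 CPM, were also highest there. Dendritic cell, B cell and choroid plexus markers were not highest in replicate 2 by this sum. Border-associated macrophage markers were highest in replicate 1 in summed CPM (1195, 1180 and 1147) but in replicate 2 in summed FPKM (350.1, 375 and 329). Tyrobp, at 1061 FPKM in replicate 2, stood highest there too. Replicate 2 also had the lowest total count and the highest sum of FPKM, 560743 beside 536963 and 529085 in replicates 1 and 3. The part of these features in the differences between libraries was not tested.

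In size these differences were small. The biological coefficient of variation estimated by edgeR was 4.90% for Fcgr2b, 5.02% for Fcgr3, 5.07% for Fcgr1, 5.30% for Fcrls, 5.39% for Fcer1g, 5.69% for Fcgrt and 7.79% for Fcgr4. These are gene-by-gene (tagwise) values, which edgeR draws toward those of genes of similar abundance, so they are not each gene's own spread. Fcgr2b, not called above, thus stood close to Fcgr3, which was called. The common value over genes of all depths was 8.27%, and 47.3% of genes tested fell below it. The CV of FPKM of the 7 detected members ran from 1.18 to 7.18% with a median of 4.37%, beside a median of 5.03% over the 3495 genes with a mean of at least 25 FPKM.

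**Figure D5:**
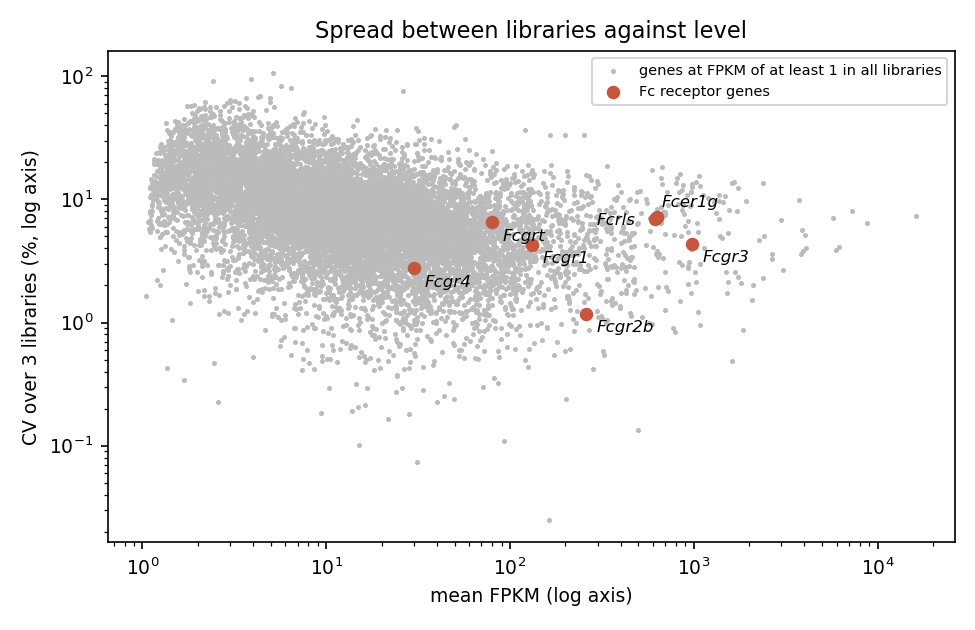
CV of FPKM over the 3 libraries against mean FPKM (both axes log) for genes with at least 1 FPKM in every library (grey) and the 7 detected Fc receptor genes (red). Fcgr2b lies low at 1.18%, and Fcer1g and Fcrls lie near 7%.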

How the data were processed

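RNA was sequenced from 3 libraries of 1 group of mouse microglia. The authors deposited estimated counts per gene and FPKM per gene, with 1 column per replicate and 0 columns of other samples. STAR (2.7.9a), DESeq2 and RSEM, and the builds GRCm38 and mm10, are named per the submitters' processing notes. The sources used here state no settings, annotation, strand, inhibitor name or dose, so overlapping and antisense genes cannot be told apart. The deposited FPKM use effective lengths, which were recovered from count, FPKM and library total.

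Symbols were matched to GENCODE M21 (GRCm38, 1-based). The Fc receptor genes, the 20 lists with their 223 different symbols (of which 13 were not matched) and the tests were chosen with earlier results of these data known. Named genes were the 8 members, a fixed set of partners, the 3 highest and the lowest of each list, and detected genes within 100 kb. Other genes named were chosen after their values were seen, and some genes under these rules are not reported here. List levels are medians of log2(FPKM + 1). Expected counts were rounded for edgeR 4.0.16 and DESeq2 1.42.0 in R 4.3.3 and filtered by edgeR's default, which left 13246 genes. The chi-square script was tested on simulated data. Depths were 15710750 to 17180404 counts, and 3 counts is the limit that a count of 0 allows.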

Additional observations from a re-analysis of the deposited data

How the results depend on the processing

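Of 58 recalculations of the 10 results, 56 kept the direction of a ratio, stayed within 1.5 times a count or moved by less than the spread between replicates. The number of members called by the test of homogeneity was 5 with DESeq2 size factors, with library totals and without the filter, and 2 to 5 with a replicate left out, 2 being without replicate 2. Beside these, the test called 41.4, 41.5 and 37.8% of all genes, and 28.2, 18.6 and 23.5% without replicates 1, 2 and 3. The share of the members was 0.502% of summed FPKM in place of 0.307% of counts, and 0.299 to 0.314% of counts with a replicate left out. Length set the ratios. By exon sums the log2 ratio of the activating IgG receptor genes to Fcgr2b was 3.89 in place of 2.14. The exon sum of Fcgr2b is longer than any of its annotated transcripts. With counts alone the log2 ratio of Fcer1g to the ligand-binding chains was -2.54 in place of -0.85. For B2m to Fcgrt it was 4.28 in place of 5.62. The order of the members also rested on length, although its count of neighbours that do not overlap stayed at 5 to 7. In CPM with no length it was Fcrls, Fcgr3, Fcgr1, Fcgr2b, Fcer1g, Fcgrt, Fcgr4, Fcer1a, and by exon sums Fcgr3, Fcrls, Fcer1g, Fcgr1, Fcgrt, Fcgr2b, Fcgr4, Fcer1a, so that Fcrls passed Fcer1g and Fcgr1 passed Fcgr2b in both. With 7 of 8 members detected under each threshold tried (0.5 and 5 FPKM, 1 CPM), detection did not depend on it. No paired analysis was possible because there is 1 group.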

Other observations

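Markers of lymphoid and dendritic cells were low, whereas those of neutrophils and monocytes were not. Jchain, the joining chain of secreted IgM and IgA, was the only gene of the immunoglobulin list matched in the tables, so heavy and light chains were not analysed here, and it was at 3.70 ± 0.29 FPKM. Of 9 B cell markers 3 were detected, with Cd79b at 16.4 ± 2.96, Ebf1 at 6.08 ± 0.77 and Cd22 at 3.13 ± 0.56 FPKM, while Pax5 was lowest at 0.04 ± 0.08 FPKM. Of 8 NK cell markers 4 were detected, with Gzma at 10.2 ± 3.07, Klrd1 at 6.14 ± 2.33 and Nkg7 at 3.89 ± 0.89 FPKM and Eomes lowest at 0.05 ± 0.04 FPKM. Of 7 dendritic cell markers 5 were detected, with Batf3 at 16.2 ± 1.07, Cd209a at 8.13 ± 0.57 and Zbtb46 at 5.45 ± 0.22 FPKM, and Xcr1 was lowest at 0.18 ± 0.04 FPKM.

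All 9 markers of border-associated macrophages were detected, with Stab1 at 82.3 ± 2.95, Pf4 at 68.6 ± 6.61, Mrc1 at 61.3 ± 3.40 and, lowest, Ms4a7 at 8.14 ± 2.17 FPKM. The monocyte markers were led by Chil3 at 335 ± 13.3, Ly6c2 at 130 ± 21.4 and Plac8 at 121 ± 10.7 FPKM, with Treml4 lowest at 2.39 ± 0.76. S100a8 at 8800 ± 567, S100a9 at 4056 ± 210 and Ngp at 592 ± 5.75 FPKM led the neutrophil markers, with Cxcr2 lowest at 26.1 ± 2.77. All 9 endothelial markers were detected, with Ly6c1 at 1038 ± 66.6, Itm2a at 356 ± 20.3, Cldn5 at 243 ± 20.6 and Kdr at 17.1 ± 1.03 FPKM, as were all 7 choroid plexus markers, with Ttr at 5690 ± 404, Enpp2 at 850 ± 43.2, Folr1 at 42.8 ± 5.26 and Kcne2 at 14.5 ± 1.94 FPKM.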
